A study of Mus musculus with 4 samples.

Results

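A set of 31 genes known from T cells, natural killer (NK) cells and other innate lymphoid cells was followed in a sorted bone marrow fraction. The mice differed in the gene of the histone deacetylase Hdac3, and the fraction held transcripts of early B-lineage and other cells. The set was listed by symbol, and all 31 symbols had an entry among the 23275 entries of the authors' deposited table. RNA came from the B220+CD43+ fraction of bone marrow, sorted from C57BL/6 mice at 8 weeks of age. The Hdac3-deleted group was Hdac3F/-Mb1cre+/-, with 1 conditional and 1 null allele of Hdac3, and the wild-type group was Hdac3+/+Mb1cre+/-, so both groups carried the Mb1-cre recombinase. There were 2 libraries per genotype, each from cells of 2 pooled mice. Mb1-cre is expressed from the Cd79a locus in the B lineage. Whether the conditional allele was deleted in sorted cells outside that lineage was not measured. By genotype, such cells carried 1 null allele of Hdac3 in the Hdac3-deleted group and no null allele in the wild-type group. The term Hdac3-deleted cells stands here for all sorted cells of that group. Levels are given in FPKM, a fragment count scaled to transcript length and library size, as the 1 value per genotype that the authors deposited for its libraries together. No spread between libraries can be given, and the depth of the libraries is unknown. Differences rest on the authors' Cuffdiff test, and a gene is said to have risen or fallen only where its q-value (a p-value adjusted over all tested genes) was under 0.05.

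T cells recognise antigen through a receptor whose signal is carried by the CD3 chains and passed on by the kinases Lck and Zap70 and the adaptor Lat. NK cells have no such antigen receptor. They weigh activating against inhibitory surface receptors, and kill target cells with perforin and granzymes stored in granules, under the T-box transcription factors Eomes and Tbx21. In marrow, B220 is not confined to B cells: plasmacytoid dendritic cells carry it, and so do some NK cells. Several genes of the set are therefore no proof of a T or NK cell, since mouse plasmacytoid dendritic cells also transcribe Cd4 and Cd8a, and mouse B-lineage cells transcribe Cd2. In bulk RNA, fewer cells of a type and less RNA per cell cannot be told apart.

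As a check of the labels, Hdac3 had 22.0 FPKM in Hdac3-deleted cells and 46.8 FPKM in wild-type cells, a fall that the authors' deposited table gives at q = 0.00160. Exons outside the deleted part also count toward this value. Early B-cell genes were abundant in the sort, with Igll1, a surrogate light chain gene, at 834 and 509 FPKM in Hdac3-deleted and wild-type cells. Plasmacytoid dendritic cell genes were also abundant, with Bst2 at 670 and 578 FPKM in the same order of genotypes.

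The levels of NK-cell and T-cell genes overlapped in both genotypes, with Cd4 and Lck above several NK receptors and Nkg7, Klrd1 and Gzma above every CD3 chain. Eomes, a T-box factor of NK-cell maturation, was the 1 gene of the set that changed, 1.51-fold higher in Hdac3-deleted cells. Of the 31 genes, 30 were tested by the authors, and 30 had at least 1 FPKM in both genotypes. The gene left untested was Bcl11b, a transcription factor required for T-cell commitment, at 0.339 FPKM in Hdac3-deleted and 0.275 FPKM in wild-type cells. In 28 genes both genotypes reached 5 FPKM, and in 4 genes both reached 100 FPKM.

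The most abundant gene of the set was Cd7, an immunoglobulin-family surface protein of T and NK cells, with 329 FPKM in Hdac3-deleted and 242 FPKM in wild-type cells. Next in Hdac3-deleted cells stood Nkg7, a granule membrane protein of killer cells, at 185 FPKM, against 184 FPKM in wild-type cells. Klrd1 (CD94) and Gzma (granzyme A) followed, with 165 and 153 FPKM in Hdac3-deleted cells and 139 and 147 FPKM in wild-type cells. The fifth place was held by Cd4 in both genotypes. Together these 5 genes made up 61.0% of the summed FPKM of the set in Hdac3-deleted and 60.6% in wild-type cells. With 1 value per genotype, neighbours in this order such as Klrd1 and Gzma cannot be said to differ. The whole set summed to 1535 FPKM in Hdac3-deleted and 1307 FPKM in wild-type cells, a ratio of 1.17. That was 0.270% of all FPKM in Hdac3-deleted cells and 0.224% in wild-type cells.

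The name of the set was checked against markers of each cell type. The 9 NK markers Ncr1, Klrb1c, Klrk1, Klrd1, Klrc1, Eomes, Tbx21, Prf1 and Gzma summed to 563 FPKM in Hdac3-deleted and 493 FPKM in wild-type cells, and each exceeded 7 FPKM. The 8 T-cell markers Cd3e, Cd3d, Cd3g, Cd247, Bcl11b, Lat, Zap70 and Cd28 summed to 76.9 FPKM in Hdac3-deleted and 63.5 FPKM in wild-type cells. Apart from Bcl11b they lay between 5.60 and 19.3 FPKM in Hdac3-deleted cells and between 4.82 and 13.4 FPKM in wild-type cells. Themis, needed for thymocyte selection, was at 0.173 FPKM in Hdac3-deleted and 0.274 FPKM in wild-type cells and was not tested. So transcripts of both lists were present, those of the listed NK markers with the larger sum, while Bcl11b and Themis were near 0. The sum of the T-cell list is no proof of T cells. Cd247 also serves activating NK receptors and shares its locus entry with Pou2f1. Single genes of these lists overlapped, Tbx21 being below Lat and Cd3g in both genotypes.

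**Figure D1:**
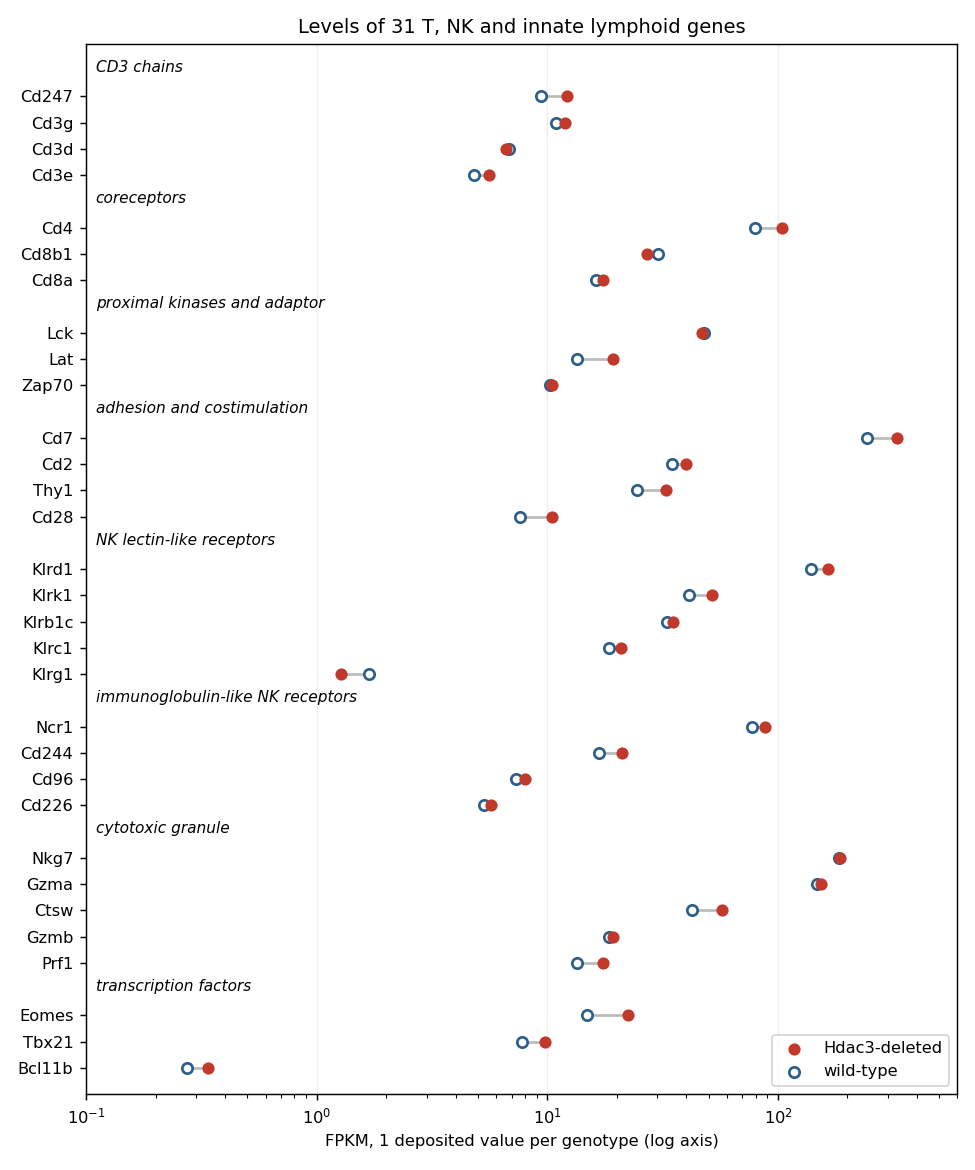
FPKM of the 31 genes on a log axis, grouped by role and sorted within each role by the Hdac3-deleted value; filled red points are Hdac3-deleted cells, open blue points wild-type cells, each 1 deposited value with no error bar. Cd7 is highest in both genotypes at 329 and 242 FPKM, and Bcl11b lowest at 0.339 and 0.275 FPKM.

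Of the 30 tested genes, 1 rose and 0 fell. Over all 12683 genes tested in the authors' Cuffdiff table, 6.95% changed, 2.81% being higher and 4.14% lower in Hdac3-deleted cells. A count of 1 in 30 is thus no larger a share than that of all genes. Most differences in the set were small and positive: 26 genes had a positive and 4 a negative log2 fold change, Hdac3-deleted over wild-type. Over all tested genes 53.4% were positive. The median log2 fold change was 0.19 in the set and 0.03 over all tested genes, whose middle 50% lay between -0.19 and 0.24. At an unadjusted p under 0.05 in the Cuffdiff table there were 6 genes of the set, all higher in Hdac3-deleted cells, against 8.16% higher and 8.95% lower over all tested genes. These 6 were Eomes, Lat, Cd28, Cd7, Ctsw and Thy1.

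**Figure D2:**
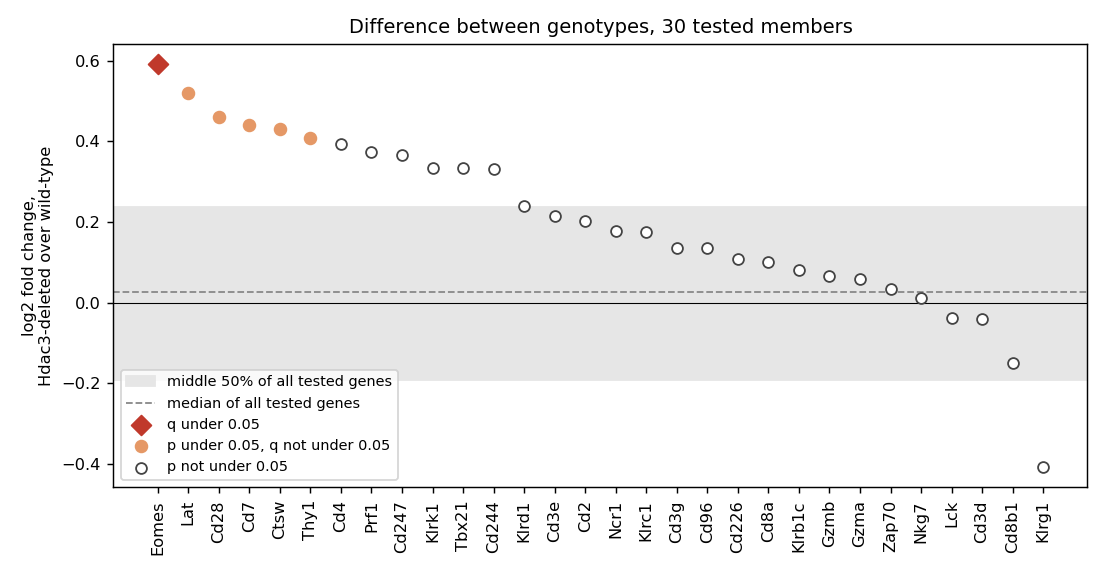
Log2 fold change, Hdac3-deleted over wild-type, of the 30 tested genes in order of size; the grey band holds the middle 50% of all tested genes and the dashed line their median. Eomes, at 0.59, is the only gene of the set with q under 0.05, and Klrg1, at -0.41, is the lowest.

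The 2 tested transcription factors differed in their call. Eomes had 22.4 FPKM in Hdac3-deleted and 14.8 FPKM in wild-type cells, a log2 fold change of 0.59, with q = 0.0300 in the authors' deposited table. Its call was lost at a q threshold of 0.01 and when p was taken from the deposited statistic by a normal approximation. Of all tested genes, 6.39% had a log2 fold change at least as high as that of Eomes. Its exons share 118 bases with Gm33460, an antisense gene, and strandedness of the libraries is not stated in the labels. Tbx21 (T-bet), the related T-box factor, had 9.81 FPKM in Hdac3-deleted and 7.79 FPKM in wild-type cells, and did not pass the test. The level of Eomes was 2.28 times that of Tbx21 in Hdac3-deleted cells and 1.91 times in wild-type cells. Whether the fold changes of these 2 genes differ was not tested.

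Signalling parts of the T-cell receptor were present at modest levels and none of them changed, where 6.95% of all tested genes did. Cd3g and Cd247, the zeta chain that also serves activating NK receptors, had 12.0 and 12.1 FPKM in Hdac3-deleted cells, against 10.9 and 9.40 FPKM in wild-type cells. Cd3d and Cd3e were lower in level, with 6.63 and 5.60 FPKM in Hdac3-deleted cells and 6.82 and 4.82 FPKM in wild-type cells. The 4 chains had log2 fold changes from -0.04 to 0.37. Cd247 shares its locus entry and 3007 exon bases with Pou2f1 on the opposite strand, at 12.6 FPKM in Hdac3-deleted and 13.1 FPKM in wild-type cells, so its value is less certain. Among the downstream proteins, Lck stood at 46.6 FPKM in Hdac3-deleted and 47.9 FPKM in wild-type cells. Zap70, the kinase that binds phosphorylated CD3 chains, had 10.5 and 10.2 FPKM in the same order. Lat, the membrane adaptor that Zap70 phosphorylates, had 19.3 FPKM in Hdac3-deleted and 13.4 FPKM in wild-type cells. Its log2 fold change of 0.52 was the second largest of the set and did not pass, at q = 0.165 in the authors' deposited table.

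The coreceptors that bind MHC molecules beside the T-cell receptor were more abundant than the CD3 chains. Cd4 had 104 FPKM in Hdac3-deleted and 79.4 FPKM in wild-type cells, with q = 0.346 in the authors' deposited table. Cd8a had 17.4 and 16.2 FPKM, and Cd8b1 27.2 and 30.2 FPKM, in Hdac3-deleted and wild-type cells. The beta chain of CD8 was thus above the alpha chain in level, 1.56 times in Hdac3-deleted and 1.86 times in wild-type cells. Whether Cd4 and Cd8a were made in plasmacytoid dendritic cells here was not tested; the 12 markers of those cells summed to 3881 FPKM in Hdac3-deleted and 3084 FPKM in wild-type cells, none of them at 0.

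Of the adhesion and costimulation genes, 4 of 4 had a positive log2 fold change, as had 53.4% of all tested genes. None of the 4 passed the test, where 6.95% of all tested genes did. For Cd7 the log2 fold change was 0.44 with q = 0.208 in the authors' deposited table, and its exons share 122 bases with the antisense gene Gm11775. Cd28, the receptor that costimulates T-cell activation, had 10.5 FPKM in Hdac3-deleted and 7.61 FPKM in wild-type cells. Thy1, a surface glycoprotein of T cells and innate lymphoid cells, had 32.6 FPKM in Hdac3-deleted and 24.5 FPKM in wild-type cells. Cd2, an adhesion receptor, had 39.8 and 34.6 FPKM in the same order. The summed level of the 4 genes was 412 FPKM in Hdac3-deleted and 309 FPKM in wild-type cells, a ratio of 1.33.

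None of the 5 granule genes changed, where 6.95% of all tested genes did. The abundant Nkg7 and Gzma had nearly the same level in both genotypes. The log2 fold changes were 0.01 for Nkg7, 0.06 for Gzma and 0.07 for Gzmb (granzyme B), whose levels were 19.3 FPKM in Hdac3-deleted and 18.5 FPKM in wild-type cells. Relative to the median gene, taken among those of 1 FPKM or more on both sides, the sign of Nkg7 turned, to -0.01. Gzma was 7.93 times as abundant as Gzmb in Hdac3-deleted and 7.97 times in wild-type cells. Prf1 (perforin), which forms the pores through which granzymes enter, had 17.4 FPKM in Hdac3-deleted and 13.4 FPKM in wild-type cells. Ctsw, a protease of cytotoxic lymphocytes, had 57.0 and 42.3 FPKM in the same order, with q = 0.218 in the authors' deposited table. It shares 9 exon bases with Fibp on the opposite strand. As a group the 5 granule genes summed to 432 FPKM in Hdac3-deleted and 405 FPKM in wild-type cells, a ratio of 1.07.

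Sequence before the transcription start is shown for 5 of these genes: Eomes, the 1 gene that rose, its relative Tbx21, and the granule genes Nkg7, Gzma and Prf1, none of which passed the test. Each is the 250 bases before the first start listed by RefSeq (GRCm38.p6, the assembly of mm10), written 5′ to 3′ along the gene's own strand. Capitals mark matches on either strand to 4 short motifs: GGTGTG (T-box), TGTGGT (RUNX), TTCNNNGAA (STAT) and CAGGAA (ETS). In Nkg7 a STAT match and an ETS match overlap.
Eomes at chr9:118477939-118478188, plus strand: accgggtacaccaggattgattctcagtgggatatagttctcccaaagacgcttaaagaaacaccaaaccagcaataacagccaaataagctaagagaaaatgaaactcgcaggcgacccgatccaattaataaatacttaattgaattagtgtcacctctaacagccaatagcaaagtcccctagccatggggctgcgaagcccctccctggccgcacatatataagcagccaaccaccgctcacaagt
Tbx21 at chr11:97115332-97115581, minus strand: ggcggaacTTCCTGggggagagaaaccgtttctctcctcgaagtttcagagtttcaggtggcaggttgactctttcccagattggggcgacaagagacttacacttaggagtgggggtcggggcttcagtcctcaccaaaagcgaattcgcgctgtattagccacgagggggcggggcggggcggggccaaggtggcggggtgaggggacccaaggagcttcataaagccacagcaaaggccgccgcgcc
Nkg7 at chr7:43436888-43437137, plus strand: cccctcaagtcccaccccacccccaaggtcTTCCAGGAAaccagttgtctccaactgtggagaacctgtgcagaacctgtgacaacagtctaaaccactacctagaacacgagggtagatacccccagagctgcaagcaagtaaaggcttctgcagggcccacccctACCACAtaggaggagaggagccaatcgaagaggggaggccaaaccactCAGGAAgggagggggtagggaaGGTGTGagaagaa
Gzma at chr13:113100982-113101231, minus strand: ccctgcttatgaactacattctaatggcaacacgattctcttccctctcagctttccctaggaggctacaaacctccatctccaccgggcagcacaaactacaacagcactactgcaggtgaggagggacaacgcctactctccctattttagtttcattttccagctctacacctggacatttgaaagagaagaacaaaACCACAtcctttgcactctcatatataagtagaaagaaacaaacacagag
Prf1 at chr10:61297586-61297835, plus strand: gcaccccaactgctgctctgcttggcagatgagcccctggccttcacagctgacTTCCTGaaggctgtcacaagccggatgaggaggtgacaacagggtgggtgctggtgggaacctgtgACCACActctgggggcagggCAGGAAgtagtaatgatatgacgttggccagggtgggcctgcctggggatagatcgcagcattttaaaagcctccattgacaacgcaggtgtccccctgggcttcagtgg
The Eomes window held none of these letters. Nkg7 had 5 matches, among them GGTGTG starting 13 bases before the RefSeq start site and a RUNX match starting 83 bases before it. In the GENCODE annotation Nkg7 begins earlier, at chr7:43437073, so this GGTGTG and 1 ETS match lie inside the gene there. The RUNX match of Gzma began 50 bases, and that of Prf1 130 bases, before the start site. Of the 31 genes, 21 had a sequence in the RefSeq table, Cd244 under its current name Cd244a. The RUNX letters were in 10 of these 21 windows, against 14.2% of the windows of 27025 genes. They were in the windows of Cd96, Gzma, Gzmb, Klrb1c, Klrc1, Klrk1, Lck, Ncr1, Nkg7 and Prf1. The ETS letters were also in 10 windows, against 25.4% of all. The T-box letters were in 2 windows (Cd3d and Nkg7), against 16.2%, and the STAT letters in 3, against 7.18%. These matches are a description of letters and say nothing of binding. Runx3, a RUNX factor of cytotoxic lymphocytes, had 19.0 FPKM in Hdac3-deleted and 13.9 FPKM in wild-type cells, with q = 0.173 in the authors' deposited table. Runx2, listed here as a plasmacytoid dendritic cell marker, was higher in level, with 108 and 79.7 FPKM in the same order. Whether either factor acts on these windows was not tested.

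Surface receptors of NK cells were measured at levels from about 1 FPKM to above 100 FPKM. None of the 9 changed (6.95% of all tested genes did), nor did any reach an unadjusted p under 0.05 in the Cuffdiff table. Among the lectin-like receptors, Klrd1 (CD94) is the common partner of the NKG2 chains, and Klrc1 encodes the inhibitory NKG2A chain. Klrc1 had 20.9 FPKM in Hdac3-deleted and 18.5 FPKM in wild-type cells, with q = 0.825 in the authors' deposited table. Klrd1 was 7.88 times as abundant as Klrc1 in Hdac3-deleted and 7.53 times in wild-type cells. Klrk1 (NKG2D), an activating receptor for stress-induced ligands, had 52.0 and 41.2 FPKM in Hdac3-deleted and wild-type cells. Klrb1c, which encodes the NK1.1 antigen of C57BL/6 mice, had 35.1 and 33.1 FPKM in the same order. Klrg1, a receptor of terminally matured NK and effector T cells, was low, at 1.27 FPKM in Hdac3-deleted and 1.69 FPKM in wild-type cells. Its log2 fold change of -0.41 was the lowest of the set, with q = 0.696 in the authors' deposited table.

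The immunoglobulin-like receptors were led by Ncr1 (NKp46), an activating receptor that defines NK cells and some other innate lymphoid cells. It had 87.6 FPKM in Hdac3-deleted and 77.4 FPKM in wild-type cells, with a log2 fold change of 0.18. Cd244 (2B4) had 21.1 and 16.8 FPKM in Hdac3-deleted and wild-type cells. Cd226, which activates on binding nectin-family proteins, had 5.72 and 5.31 FPKM, and Cd96, which competes for the same ligands, 8.01 and 7.30 FPKM in the same order. The 4 genes had log2 fold changes from 0.11 to 0.33.

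Klrb1c, Klrd1, Klrk1 and Klrc1 lie in the natural killer gene complex, a cluster of lectin-like receptor genes, so its other genes were set beside them. The interval from Klrb1a to the end of the Klra genes, chr6:128609227-130386874 of mm10, held 55 entries, of which 47 were tested. Among the 30 tested Klr entries 0 were called in the authors' Cuffdiff test, where 6.95% of all tested genes were called. Of these entries 1, Klrc2, was higher at an unadjusted p under 0.05 in that test, as were 8.16% of all tested genes. Klrc2, encoding the activating NKG2C chain, had 39.6 FPKM in Hdac3-deleted and 26.9 FPKM in wild-type cells. Outside the locus entry shared by the Ly49 (Klra) genes, 14 of 14 Klr entries had a positive log2 fold change, from 0.08 to 0.56. Over all tested genes 53.4% were positive. In that shared locus 16 entries were tested and 11 were positive. The genes are near-identical copies, as Klrc1, Klrc2 and Klrc3 are close relatives, so fragments may be split between them and each value is uncertain.

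Of the 17 tested genes in the interval outside the Klr family, 3 rose and 1 fell, against 2.81% higher and 4.14% lower over all tested genes. Clec2d, a lectin-like ligand of Klrb1-family receptors, had 333 FPKM in Hdac3-deleted and 167 FPKM in wild-type cells and rose, with q = 0.00160 in the authors' deposited table. Cd69, an early activation antigen of lymphocytes, rose 1.72-fold to 52.7 FPKM in Hdac3-deleted cells, against 30.7 FPKM in wild-type cells. The low-level Clec2e rose to 1.17 FPKM in Hdac3-deleted cells, against 0.179 FPKM in wild-type cells. Clec7a, the myeloid receptor dectin-1, fell to 1.86 FPKM in Hdac3-deleted cells, against 4.58 FPKM in wild-type cells. These 4 genes are named because they were called, after their values were seen. B-lineage cells can express Clec2d and Cd69 too, and in which cells of the sort they were made was not tested.

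**Figure D3:**
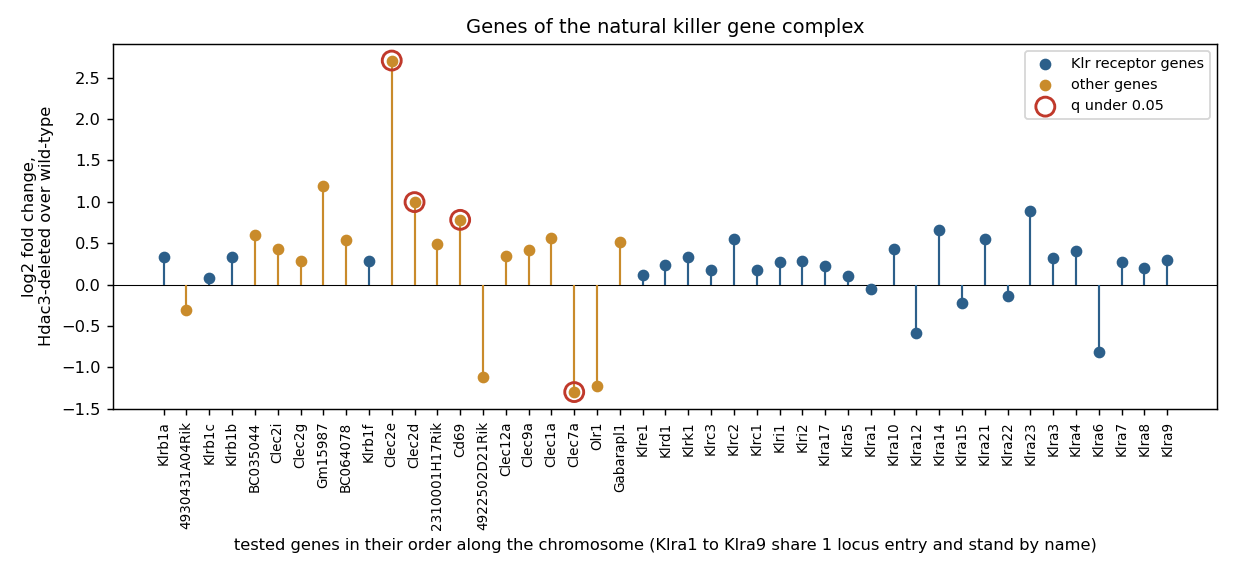
Log2 fold change, Hdac3-deleted over wild-type, of tested genes in the natural killer gene complex in chromosomal order, leaving out 2 entries that name several genes; blue points are Klr receptor genes, ochre points other genes, and red rings mark q under 0.05. The ringed genes are Clec2e, Clec2d, Cd69 and Clec7a, and none of the Klr genes is ringed. Whether the Klr genes differ from the other genes in this was not tested.

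Ligands of the receptors in the set were listed from textbook knowledge after the members' values were seen, and 16 of 18 had an entry. Of the 12 that were tested, Clec2d was the 1 that changed, a share near the 6.95% of all tested genes, and 9 had a positive log2 fold change, as had 53.4% of all. Cd48, the ligand of Cd2 and Cd244, had 166 FPKM in Hdac3-deleted and 157 FPKM in wild-type cells. H2-T23, which encodes the Qa-1 molecule seen by the CD94 and NKG2A pair, had 171 and 147 FPKM in the same order. It shares its locus entry with another gene, so its value is less certain. Ulbp1, a ligand of Klrk1, had 15.6 and 18.2 FPKM, and Pvr, the ligand of Cd226 and Cd96, 6.11 and 4.28 FPKM in Hdac3-deleted and wild-type cells. None of these 4 passed the test. At an unadjusted p under 0.05 in the Cuffdiff table, 3 of the 12 were higher (Clec2d, Cdh1 and Pvr) and 1 lower (Cd80). Over all tested genes 8.16% were higher and 8.95% lower at that threshold.

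Further genes of the same lineages moved in both directions. Of 25 tested T-cell genes outside the set, 4 rose and 2 fell, where 2.81% of all tested genes were called higher and 4.14% lower. Their median log2 fold change was 0.31, against 0.03 over all. Cd5, an inhibitory receptor of T cells and some B cells, rose 2.71-fold to 6.14 FPKM in Hdac3-deleted cells, against 2.26 FPKM in wild-type cells. Ptpn22, a phosphatase that restrains antigen-receptor signalling, rose 1.62-fold to 33.5 FPKM, against 20.7 FPKM in wild-type cells. Fyb, an adaptor of T-cell adhesion, rose 1.54-fold to 115 FPKM, against 74.3 FPKM in wild-type cells, and Tcf7 was the remaining gene that rose. Sit1, a transmembrane adaptor of lymphocytes, fell 2.34-fold to 7.64 FPKM, against 17.9 FPKM in wild-type cells, and Il2ra also fell. Sla2, an adaptor that dampens receptor signalling, had 42.3 FPKM in Hdac3-deleted and 34.0 FPKM in wild-type cells and did not pass. All 6 of these calls have a q-value of 0.0391 or less in the authors' deposited table, and B-lineage cells transcribe several of these genes too.

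Among 36 tested further NK and innate lymphoid genes, 1 rose and 1 fell, which is no larger a share than the 6.95% called over all tested genes. In 31 of the 36 (86.1%) the log2 fold change was positive, against 53.4% of all tested genes, and the median was 0.27. Il18r1, a chain of the interleukin 18 receptor that primes NK cells, rose 1.58-fold to 22.9 FPKM in Hdac3-deleted cells, against 14.4 FPKM in wild-type cells (q = 0.0272 in the authors' deposited table). Ifng, the interferon that activated NK and T cells secrete, fell 2.44-fold to 3.15 FPKM, against 7.69 FPKM in wild-type cells (q = 0.00290 in the authors' deposited table). The chemokine gene Ccl5 had 437 FPKM in Hdac3-deleted and 359 FPKM in wild-type cells. Il2rb, the receptor chain shared by interleukins 2 and 15, had 103 and 78.9 FPKM in the same order. Neither of these abundant genes passed the test.

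Markers of other cell types in the sort were read from the same libraries. Over all tested genes, 2.81% were called higher and 4.14% lower in Hdac3-deleted cells, and the median log2 fold change was 0.03. At an unadjusted p under 0.05 in the Cuffdiff table, 8.16% of all tested genes were higher. The 12 plasmacytoid dendritic cell markers had a median log2 fold change of 0.40, from 0.16 to 0.59, with 0 called and 3 at an unadjusted p under 0.05 in the Cuffdiff table. Irf8, a factor of those cells, had 672 FPKM in Hdac3-deleted and 514 FPKM in wild-type cells. The 11 early B-cell markers had a median of 0.49, and 5 rose, among them Dntt 1.91-fold. The 10 neutrophil and myeloid markers summed to 2575 FPKM in Hdac3-deleted and 10394 FPKM in wild-type cells, and 8 of them fell, S100a8 by the largest amount in FPKM. That sum was 0.453% of all FPKM in Hdac3-deleted and 1.78% in wild-type cells. Of 5 basophil markers 2 fell, and Mcpt8 stood at 1.45 FPKM in Hdac3-deleted and 9.05 FPKM in wild-type cells. The part of these shifts in the differences of the T, NK and innate lymphoid genes was not tested, nor was any difference between these medians.

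**Figure D4:**
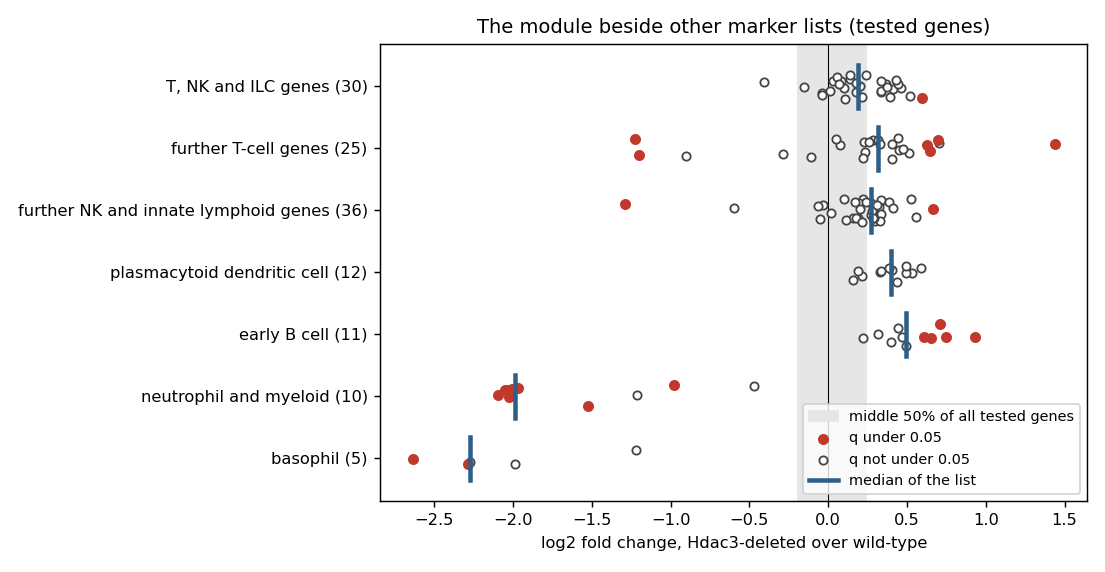
Log2 fold change, Hdac3-deleted over wild-type, of each tested gene in 7 lists; filled points have q under 0.05, blue bars are list medians, the grey band holds the middle 50% of all tested genes, and vertical scatter within a row has no meaning. The T, NK and innate lymphoid genes, with a median of 0.19, lie between the early B-cell genes at 0.49 and the neutrophil and myeloid genes at -1.99.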

How the data were processed

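Polyadenylated RNA of B220+CD43+ marrow cells was measured in 4 libraries, 2 per genotype, extracted with Trizol and made with an Illumina TruSeq kit, per the labels' protocols. The submitters' processing notes name Trimmomatic 0.32, TopHat2 2.0.11, Cuffdiff 2.1.1 and the mm10 build; options, strandedness and gene annotation are not stated there. Per the file headers, the deposited table holds 1 FPKM value per entry and genotype, the test statistic (a score), and the authors' p-value and q-value. The q-value matched a Benjamini-Hochberg adjustment over the 12683 tested entries within 5.27e-07. Values per library were not used here, which leaves no replicate spread, and whether the samples were separate beyond their pools is not stated. Depth is unknown; in 64 of 4973 low entries the genotypes' values stood at the same ratio of 1.14 (Hdac3-deleted over wild-type), which hints at the weight of 1 fragment in each group.

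Fold changes were computed as Hdac3-deleted over wild-type FPKM with no pseudocount, because the deposited fold change column held 688 spreadsheet errors. Members and lists were chosen with earlier results of these data known. Every gene of the set is accounted for. From each other list, up to 4 called genes by smallest q and the 2 with the highest mean were to be named. Of these, Vpreb1, Blnk, Ltf, Lyz2, Camp, S100a9 and Prss34 were left out of the text above. Others named were chosen after their values were seen. Positions were shifted to count from 1. Exon overlaps came from GENCODE vM21 and promoter windows from RefSeq GRCm38.p6. Of the set, 8 genes overlap exons of another gene, and 2 of these partners reached 1 FPKM in the table. The functions were tested on simulated data. Other settings tried were the q threshold, the pseudocount, centring, a 2-fold minimum, a floor of 1 FPKM, loci of single entries and another p-value. Computation used numpy 2.4.6, scipy 1.17.1, pandas 2.3.3 and matplotlib 3.10.9 under Python 3.11.15.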

Additional observations from a re-analysis of the deposited data

How the results depend on the processing

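Eomes was the 1 gene of the set called at a q under 0.05 and also at a q under 0.1, with at least 1 FPKM, and among entries with a locus of their own. The count was 0 at a q under 0.01, with at least a 2-fold difference, and under a normal approximation to the deposited statistic, an alternative added after the data were seen. Over all tested genes these 3 settings gave 189, 130 and 136 higher and 345, 296 and 335 lower genes, against 356 and 525. The median log2 fold change of the set was 0.19, and became 0.18 with a pseudocount of 1 FPKM, 0.17 when centred on the median gene, and 0.20 with Bcl11b included. The log2 ratio of the summed FPKM was 0.23, and 0.18 without Cd7 or 0.21 when divided by the median ratio of all genes. Centring turned the sign of Nkg7, to -0.014 from 0.011, and kept that of the other 30 genes; both pseudocounts kept all 31. No paired analysis was possible because the table holds 1 value per genotype, and for the same reason no replicate could be left out. That also limits what can be said of genes that missed the threshold.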
